A study of Mus musculus with 6 samples.

Results

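The genes for the proteins of the cytosolic ribosome were followed in chondrocytes of the mouse, the cells that make cartilage matrix. Members were taken by symbol: Rpl or Rps followed by a number and optional letters, together with Rplp0, Rplp1, Rplp2 and Rpsa, leaving out Rpl10l and the S6 kinase genes. The rule found 84 of the 35976 genes in the count table, 51 of the large subunit and 33 of the small subunit. The family was selected on its H3K9M against H3WT log2 fold changes, so those values are given below as a description of these libraries and without a test as support.

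Polyadenylated RNA was measured in 6 bulk libraries of chondrocytes from hind limb articular cartilage of embryos at day 18.5, strain C57BL/6 x 129S4/SvJae. All cells were grown on plastic for 16 population doublings with doxycycline at 2 µg/ml, which induced transgenic H3.3, a variant of histone H3. The H3K9M group (3 libraries, replicates 1, 3 and 5) expressed H3.3 whose lysine at residue 9 was replaced by methionine, and the labels give methylation of that residue as suppressed. In the H3WT group (3 libraries, replicates 1, 2 and 4) the transgene was wild-type H3.3, so both groups carried a transgene and received the drug. The labels do not say whether libraries came from separate animals or cultures, so the spread between replicates may be technical. The labels do not name the promoter that drives the transgene.

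Each ribosome joins ribosomal RNA with about one copy of each ribosomal protein in a small subunit, which reads the message, and a large subunit, which forms the peptide bond. Most of these proteins are small, basic and encoded by short, abundant messages of housekeeping genes scattered over the chromosomes. Their messages begin with a run of pyrimidines, the 5′ terminal oligopyrimidine (TOP) tract, through which mTOR signalling and the RNA-binding protein LARP1 control their translation and stability. Ribosome content sets the protein synthesis capacity of cells that secrete matrix, such as chondrocytes.

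Total counts ranged from 15113675 to 19606082 per library. Levels are given in CPM, the counts scaled to a common library size, with TMM factors, and a log2 fold change is H3K9M minus H3WT from edgeR, with its standard error (SE). No library was a repeat of another, since the chi-square between libraries of a group was 27.9 to 122 per degree of freedom. Pure sampling noise would give a value of 1. Between groups it was 41.6 (H3K9M replicate 1 with H3WT replicate 1) to 158. Libraries of a group were thus not always more alike than libraries of different groups. The 7 chondrocyte markers summed to 7240 to 11300 CPM in H3K9M and 7130 to 18500 CPM in H3WT, and 5 fibroblast markers to 11500 to 29700 and 9610 to 34400 CPM. Col2a1, the highest chondrocyte marker, was at 4971 to 8421 CPM in H3K9M and at 4913 to 14110 CPM in H3WT. Matn1 was at 2.88 to 13.8 and 3.54 to 72.8 CPM, and Col9a1 at 25.2 to 68.6 and 38.3 to 291 CPM. Every chondrocyte marker overlapped between groups. The 4 skeletal muscle markers summed to 12.2 to 123 CPM in H3K9M against 4.31 to 26.8 CPM in H3WT, with Myod1 highest in H3K9M replicate 3 (57.0 CPM) and at 0 in H3WT replicates 1 and 4. The 6 macrophage and blood markers summed to 6.16 to 15.2 CPM against 3.37 to 4.32 CPM, with Ptprc, Adgre1 and Hbb-bs at 0 in all 6 libraries. Cd68 was at 2.61 to 12.8 CPM in H3K9M and at 0.618 to 3.37 CPM in H3WT, with overlap. Csf1r was at 2.13 to 3.55 CPM in H3K9M and at 0 to 3.71 CPM in H3WT, also with overlap. The part of muscle, macrophage and blood cells in the results was not tested. The 3 endothelial markers summed to at most 0.531 CPM, and the 3 neural and glial markers to 4.8 to 11.8 CPM in H3K9M and 1.61 to 11.3 CPM in H3WT. In bulk RNA, fewer cells of a type and less RNA per cell cannot be told apart.

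The start sites of 8 members show how far the pyrimidine run at the start varies within the family. The 25 bases before and 25 after the annotated start are printed 5′ to 3′ on the gene's strand (RefSeq, GRCm38.p6), with the longest unbroken run of C and T in capitals. The windows of Rps27, Rps15a and Rpl37, 3 genes with log2 fold changes of at least 0.63, lie at chr3:90213624-90213673, chr7:118116123-118116172 and chr15:5116588-5116637. Those of Rpl28, Rplp0 and Rpsa, with fold changes among the 5 smallest, lie at chr7:4792940-4792989, chr5:115559442-115559491 and chr9:120127741-120127790. Rps6 (chr4:86857343-86857392) encodes the substrate of the S6 kinases, and Rps27rt (chr9:114982715-114982764) is an intronless copy of Rps27.
Rps27: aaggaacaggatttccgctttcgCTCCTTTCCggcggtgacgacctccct
Rps27rt: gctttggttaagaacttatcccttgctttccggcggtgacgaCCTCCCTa
Rps15a: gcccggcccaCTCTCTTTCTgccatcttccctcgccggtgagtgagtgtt
Rpl37: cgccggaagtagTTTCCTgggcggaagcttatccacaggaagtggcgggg
Rps6: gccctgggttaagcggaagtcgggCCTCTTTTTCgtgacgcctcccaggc
Rpl28: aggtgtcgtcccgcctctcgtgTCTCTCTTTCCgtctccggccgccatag
Rplp0: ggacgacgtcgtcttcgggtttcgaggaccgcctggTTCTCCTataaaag
Rpsa: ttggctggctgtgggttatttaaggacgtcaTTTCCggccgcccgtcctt

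In Rps27, Rps6 and Rpl28 a run of 9, 10 and 11 pyrimidines spans the annotated start, beginning 2, 1 and 3 bases before it. A TOP tract begins at the first base of the message, so bases before the annotated start would not belong to it. In Rps15a the run of 10 in capitals lies upstream, and a second run of 9, at bases 25 to 33 of the printed window, spans the start. In Rps27rt a run of 6, at bases 26 to 31 of the printed window, begins at the start, and the longer run of 7 in capitals lies downstream. In Rpl37, Rplp0 and Rpsa no run covers the start. The longest runs in the windows of these 3 genes are 6, 7 and 5 bases and lie elsewhere. Start sites in the annotation can differ from those used in these cells, which the counts do not show. Rps27 and Rps27rt share an unbroken stretch of 24 of the 25 bases after their starts, while the longest stretch they share before the start is 5 bases. The copy thus holds the parent's message but not the 25 bases upstream of it.

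A promoter entry was found for 62 of the tested members, leaving out chromosome 18, where 2 members lie. A run of at least 8 pyrimidines on the gene's strand, between 25 bases before and 50 after the start, was present in 49 of these 62 (79%). It was present in 28.8% of 10109 other tested genes and in 30.4% of all 27025 genes with an entry. Such a run can lie upstream of the start, as the run in capitals for Rps15a does, and is then not a TOP tract. In the full 300-base window, on either strand, CCGGAAG (a form of the ETS motif) was found in 40.3% of members, against 19.4% of other tested genes and 9.93% of all. GGGCGG (the GC box) was found in 58.1%, against 69.4% and 38.2%, and CACGTG (the E-box of Myc) in 9.68%, against 11.7% and 8.09%. These are matches of letters in a window, not measured binding. The 49 members with a run had a median log2 fold change of 0.46 (range 0.22 to 1.08) and the 13 without one 0.42 (0.12 to 0.73). Among other protein-coding genes with transcripts of up to 1000 bases, the median was 0.26 for the 168 with a run and 0.33 for the 450 without.

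Ribosomal protein genes took a larger share of the counts in each H3K9M library than in any H3WT library. In H3K9M replicates 1, 3 and 5 the share was 4.15% (95% Wilson interval 4.14 to 4.16%), 3.70% (3.69 to 3.71%) and 3.82% (3.81 to 3.83%). In H3WT replicates 1, 2 and 4 it was 2.96% (2.95 to 2.96%), 2.93% (2.92 to 2.94%) and 2.70% (2.70 to 2.71%). The groups did not overlap, and H3K9M replicate 1 was highest and H3WT replicate 4 lowest. The intervals cover counting error only and are far narrower than the spread between replicates. The means were 3.89% ± 0.230 and 2.86% ± 0.139 (SD, n = 3 each), a difference of 1.03 percentage points and a ratio of 1.36. Both subunits took part, with 2.38% ± 0.131 against 1.77% ± 0.0866 of counts for the large subunit and 1.51% ± 0.101 against 1.09% ± 0.0541 for the small subunit. Counts on large over counts on small subunit genes were 1.57, 1.61 and 1.56 in H3K9M (replicates 1, 3 and 5) against 1.60, 1.65 and 1.62 in H3WT (replicates 1, 2 and 4). These ratios overlapped, with means of 1.58 ± 0.0309 and 1.62 ± 0.0266.

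**Figure D1:**
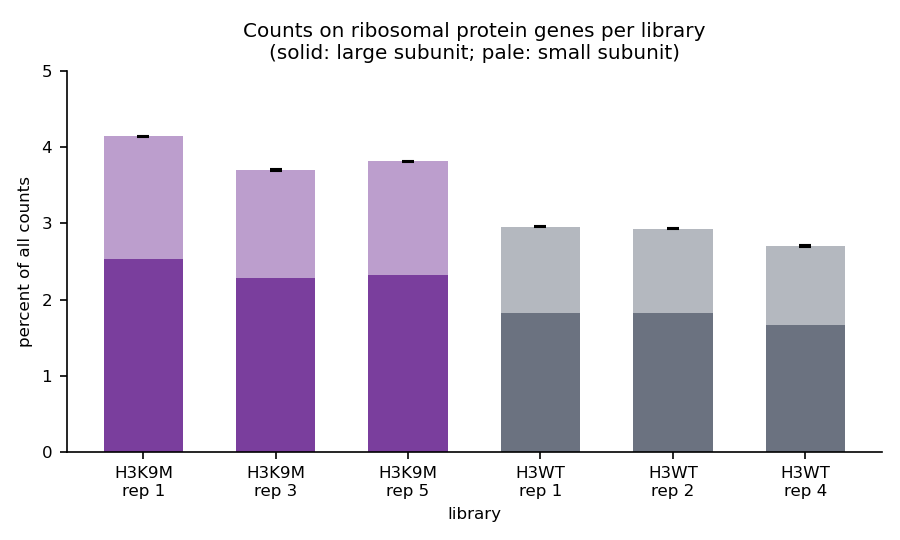
Percent of all counts on ribosomal protein genes (y axis) in each of the 6 libraries (x axis), with large subunit genes solid and small subunit genes pale; error bars are 95% Wilson intervals on the sum. All 3 H3K9M bars (3.70% to 4.15%) are taller than all 3 H3WT bars (2.70% to 2.96%).

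Of the 84 members, 83 passed the filter on low counts, and Rpl3l, the striated muscle paralog of Rpl3, had 0 counts in all 6 libraries, which allows up to 3 counts in each. All 83 had a log2 fold change above 0, as did 49.6% of all 13761 genes tested. The median was 0.45, a 1.37-fold difference, with quartiles of 0.34 and 0.57 and a range of 0.03 to 1.08, beside a median of -0.003 over all genes tested. In 75 of the 83 every H3K9M library was above every H3WT library, where 10.7% of all genes tested did so in that direction, and in 0 every H3K9M library was below, as for 8.68% of all genes tested. The exceptions, whose groups overlapped, were Rpl3, Rpl8, Rpl29, Rpl32l, Rpl36al, Rpl39l, Rplp0 and Rpsa. None of the 83 passed an adjusted p of 0.05 in edgeR's quasi-likelihood test (0% of all genes did), and 65 had an unadjusted p under 0.05, as did 6.42% of all genes tested in that direction. At that level 0 members were lower, where 5.77% of all genes tested were. The 6.42% is not matched for transcript length or abundance. Among other protein-coding genes of at least 50 CPM, the share called higher was 61.5% for transcripts of up to 500 bases. It was 1.90% for those over 5000 bases, and the classes between are given below. limma-voom also called 0, and DESeq2 called 34 of the 83, all higher, where it called 1.4% of all genes tested higher. The median biological coefficient of variation was 0.166 for members and 0.239 for all genes tested. It is edgeR's estimate per gene, which is drawn towards a trend over genes of like abundance. The sets were not matched for abundance. Small subunit genes had a median log2 fold change of 0.50 (32 of 33 without overlap) and large subunit genes one of 0.42 (43 of 50).

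**Figure D2:**
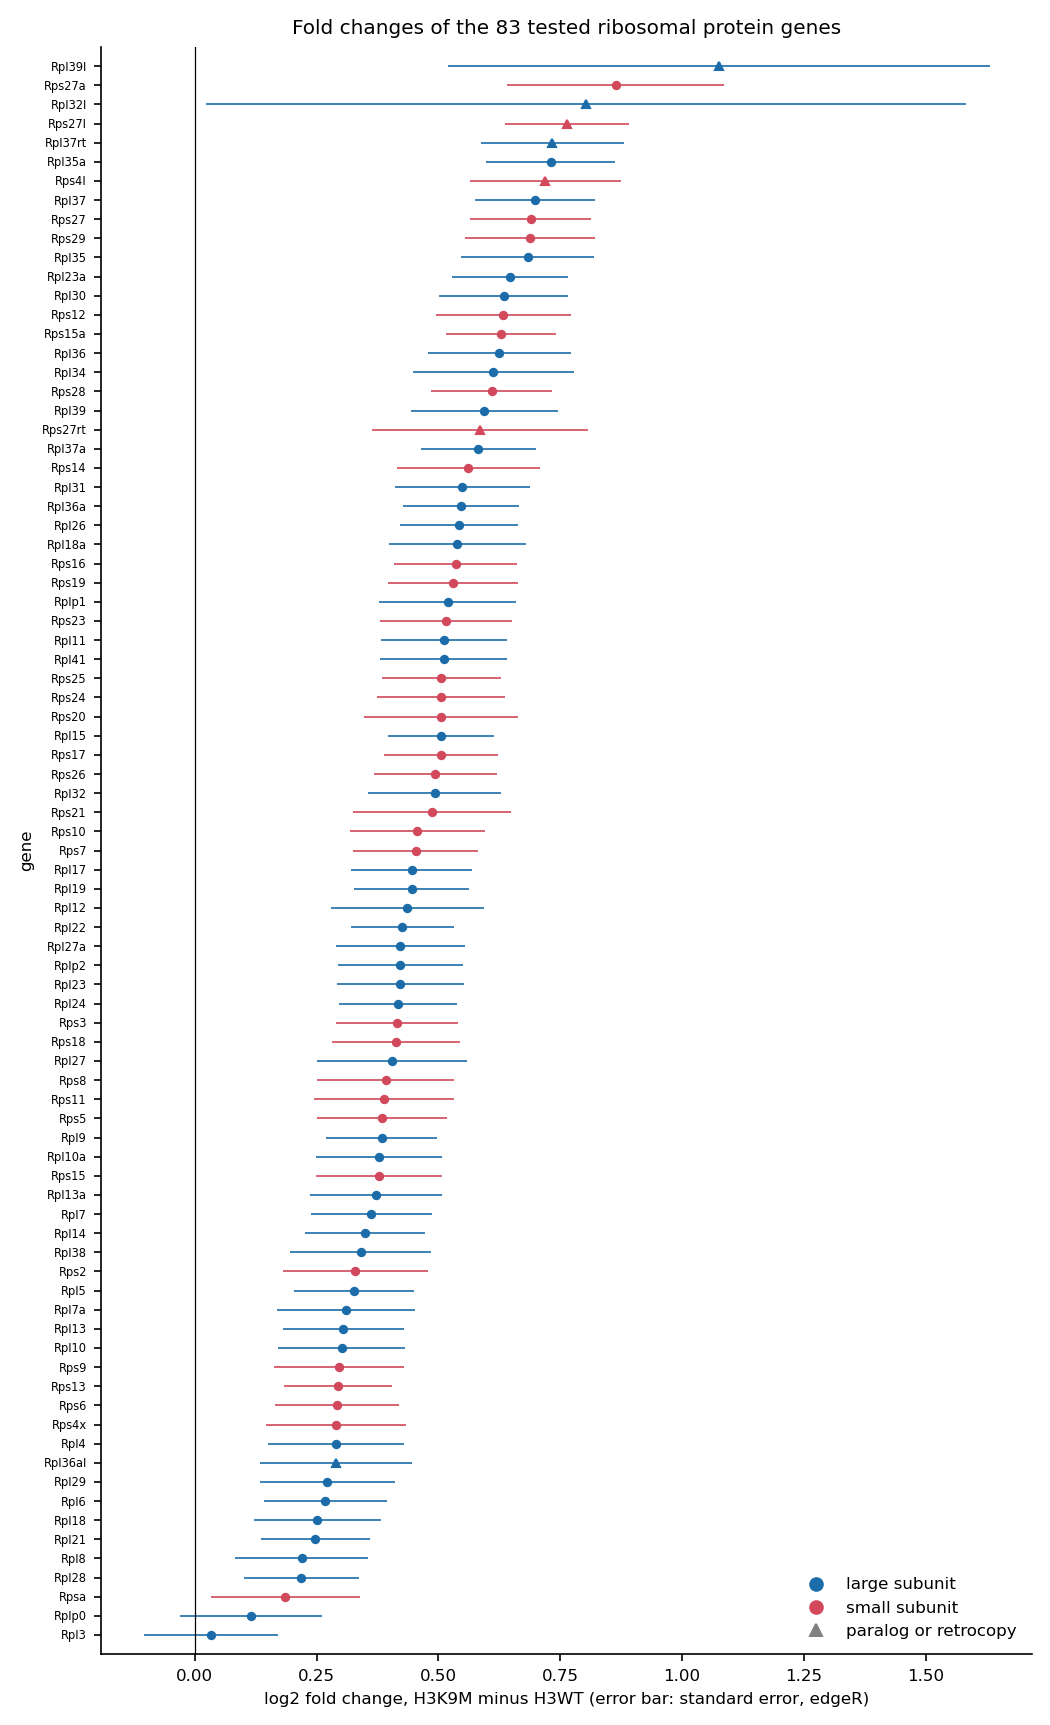
Log2 fold change of H3K9M minus H3WT (x axis; error bars are standard errors from edgeR) for the 83 tested ribosomal protein genes (y axis, ordered by value), blue for the large and red for the small subunit, with triangles for paralogs and retrocopies. All points lie right of 0, from Rpl3 at 0.03 to Rpl39l at 1.08, and the widest error bars belong to Rpl32l and Rpl39l.

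The stalk of the large subunit, which recruits the GTPases of translation, is built from Rplp0, Rplp1 and Rplp2 on Rpl12. Per kilobase of transcript, Rplp1 had the highest level of all members (2285 CPM per kb over the 6 libraries), with Rplp0 at 1384 and Rplp2 at 1156. Rplp1 was measured at 1453, 1181 and 1396 CPM in H3K9M and at 1008, 896 and 908 CPM in H3WT, where values here and below are in the order of replicates 1, 3 and 5 and of replicates 1, 2 and 4. Every H3K9M library was above every H3WT library, with a log2 fold change of 0.52 (SE 0.14). Rplp0, the scaffold of the stalk and a common reference gene in quantitative PCR, was measured at 2169, 1755 and 1939 CPM in H3K9M and at 1873, 1657 and 1882 CPM in H3WT. Its groups overlapped, since H3K9M replicate 3 was below H3WT replicates 1 and 4, and the log2 fold change was 0.12 (SE 0.15). Rplp2 (0.42, SE 0.13) and Rpl12 (0.44, SE 0.16) did not overlap between groups. Without a length offset, the protein that anchors the stalk had the second smallest fold change of the family and its partner Rplp1 one above the median. Their transcripts differ in length, at 1358 bases for Rplp0 and 499 for Rplp1. With the transcript length offset given below, Rplp0 was at -0.02 and Rplp1 at 0.17, beside a members' median of 0.18.

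Rpl5 and Rpl11, which travel with the 5S ribosomal RNA and can bind the p53 regulator Mdm2, were both higher in all H3K9M libraries. Rpl11 was measured at 582, 479.6 and 497 CPM in H3K9M and at 389, 358 and 346 CPM in H3WT, giving a log2 fold change of 0.51 (SE 0.13). Rpl5 was measured at 632, 544 and 606 CPM in H3K9M and at 498, 446 and 477 CPM in H3WT, giving a log2 fold change of 0.33 (SE 0.12). Rpl23, another Mdm2 binder, had a log2 fold change of 0.42 (SE 0.13).

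For proteins near the peptide exit site of the large subunit, 8 genes were listed. Their median log2 fold change was 0.55, with a range of 0.43 (Rpl22) to 0.68 (Rpl35), and Rpl17, Rpl19 and Rpl22 lay below the family's median. All 8 were without overlap, as were 75 of the 83 members and 10.7% of all genes tested, so the count says nothing particular to them. Rpl23a, a docking site for the signal recognition particle, was measured at 485, 422 and 452 CPM in H3K9M and at 309, 282 and 277 CPM in H3WT, giving a log2 fold change of 0.65 (SE 0.12). The lowest H3K9M library was above the highest H3WT library by more than the range of either group.

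Rpl37, a zinc-binding protein of the large subunit, was measured at 274.5, 242 and 227 CPM in H3K9M and at 162, 151 and 145 CPM in H3WT. The groups stood apart, with a log2 fold change of 0.70 (SE 0.12). Rpl41, with 75 coding bases the shortest open reading frame of the family, was measured at 644, 540.3 and 598.5 CPM in H3K9M and at 413, 452 and 386 CPM in H3WT. Its log2 fold change was 0.51 (SE 0.13), close to the median of genes many times its coding length. Rpl3, which lies by the peptidyl transferase centre and has one of the longest coding sequences of the family, was measured at 846, 669.7 and 688 CPM in H3K9M and at 741, 726 and 686 CPM in H3WT. Its groups overlapped, only H3K9M replicate 1 being above all H3WT libraries, and the log2 fold change was 0.03 (SE 0.14). Rpl8, also of the large subunit core, averaged 830.5 ± 87.1 CPM in H3K9M against 713 ± 51.8 CPM in H3WT (SD, n = 3 each), again with overlap. Rpl28 had 486 ± 34.5 and 417 ± 19.6 CPM without overlap, and both Rpl8 and Rpl28 had a log2 fold change of 0.22, that of Rpl8 being 0.15 without H3K9M replicate 1.

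In the small subunit, Rpsa, which also serves as a laminin receptor, was measured at 1786, 1372 and 1596 CPM in H3K9M and at 1537, 1316 and 1328 CPM in H3WT. H3WT replicate 1 lay above H3K9M replicate 3, and the log2 fold change was 0.19 (SE 0.15), the smallest of the subunit. It was 0.093 without H3K9M replicate 1 and 0.29 without H3K9M replicate 3. Rps2, of the messenger RNA entry channel, had the second highest level per kilobase (1462 CPM per kb) and 1784, 1437 and 1652 CPM in H3K9M against 1418, 1176 and 1285 CPM in H3WT. Its groups were separated by a narrow margin, with a log2 fold change of 0.33 (SE 0.15).

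Rps6 was measured at 746, 642 and 684 CPM in H3K9M and at 603, 567 and 523 CPM in H3WT, giving a log2 fold change of 0.29 (SE 0.13). Rps19, the gene most often mutated in Diamond-Blackfan anaemia, was measured at 343, 277 and 305 CPM in H3K9M and at 236, 197 and 208 CPM in H3WT, giving a log2 fold change of 0.53 (SE 0.13). Diamond-Blackfan anaemia is an inherited failure of red cell production caused by loss of single ribosomal protein genes. For the 17 listed genes the log2 fold change ranged from 0.25 (Rpl18) to 0.73 (Rpl35a), with a median of 0.51. All 17 were without overlap, a count near that of the family (75 of 83), where 10.7% of all genes tested were.

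Rps15a, a core protein of the small subunit, was measured at 226, 197 and 209 CPM in H3K9M and at 143, 133 and 133 CPM in H3WT, giving a log2 fold change of 0.63 (SE 0.11). Rps27a, made as a fusion with ubiquitin that is cleaved off, was measured at 318.5, 179 and 193 CPM in H3K9M and at 131, 135 and 114 CPM in H3WT. H3K9M replicate 1 was far above the other libraries of its group, and the log2 fold change of 0.86 has a larger error (SE 0.22) than most. Over the family, 1 library had the same position less strongly: the members' median level, centred on each gene's mean, was 0.37, 0.09 and 0.22 (log2) in the H3K9M libraries (replicates 1, 3 and 5) against -0.15, -0.26 and -0.29 in the H3WT libraries (replicates 1, 2 and 4). Without H3K9M replicate 1, the median log2 fold change was 0.39, 82 of 83 members were above 0 and 44 had an unadjusted p under 0.05 and were higher, beside 4.35% of all genes in that fit. The log2 fold change of Rps27a was then 0.56.

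Of the 8 members that are paralogs or retrocopies of another member, 7 were tested, with a median log2 fold change of 0.73, against 0.44 for the 76 other members. The 7 also have shorter transcripts, with a median of 499 against 705 bases, and some may share reads with their partners. These paralogs are low: the lowest levels per kilobase belonged to Rpl32l (2.89 CPM per kb), Rpl39l (8.70) and Rps27rt (30.7). Whether a read can be assigned to one copy depends on how the copies differ, which is shown here for the coding sequences of Rpl39 and Rpl39l and of Rps27 and Rps27l (GENCODE M21, 5′ to 3′, from start to stop codon), with every base that differs between partners in capitals.
Rpl39: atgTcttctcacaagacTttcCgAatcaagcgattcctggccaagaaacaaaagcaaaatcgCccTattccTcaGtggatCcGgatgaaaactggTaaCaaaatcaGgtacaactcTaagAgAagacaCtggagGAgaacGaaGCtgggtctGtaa
Rpl39l: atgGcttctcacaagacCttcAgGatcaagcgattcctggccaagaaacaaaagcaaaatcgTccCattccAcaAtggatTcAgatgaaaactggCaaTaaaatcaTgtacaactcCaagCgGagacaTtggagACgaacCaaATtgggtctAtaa
Rps27: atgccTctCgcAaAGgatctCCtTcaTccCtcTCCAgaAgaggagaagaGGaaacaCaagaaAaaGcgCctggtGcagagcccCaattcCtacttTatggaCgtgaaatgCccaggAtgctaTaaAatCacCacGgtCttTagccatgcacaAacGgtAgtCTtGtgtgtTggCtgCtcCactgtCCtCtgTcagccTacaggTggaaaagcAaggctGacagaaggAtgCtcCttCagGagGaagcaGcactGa
Rps27l: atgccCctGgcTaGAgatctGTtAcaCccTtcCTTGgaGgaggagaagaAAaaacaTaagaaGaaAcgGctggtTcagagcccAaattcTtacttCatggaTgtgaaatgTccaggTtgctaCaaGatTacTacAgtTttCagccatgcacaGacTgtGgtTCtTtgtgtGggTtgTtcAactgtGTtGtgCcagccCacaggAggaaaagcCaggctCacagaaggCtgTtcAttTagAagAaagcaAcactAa

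Rpl39l (chr16:10170197-10174911, 3 exons) differs from Rpl39 (chrX:37082518-37085222, 3 exons) at 23 of 156 coding bases. Rps27l (chr9:66944624-66949522, 4 exons) differs from Rps27 (chr3:90212667-90213648, 4 exons) at 61 of 255. The coding sequence of Rps27rt (chr9:114982366-114982739, 1 exon) has 0 differences from that of Rps27, so reads of the pair cannot be told apart there. Rpl37rt (chr5:115102922-115110268), annotated as a transcribed processed pseudogene, is 99.7% identical to Rpl37 over 294 bases. More widely, 79 of the 84 members have at least 1 other annotated gene of at least 90% identity over 200 bases or more, with a median of 9 and at most 88 (Rpl7a). How the counting treated reads that match several places is not given in the sources used here, and all member counts are uncertain to that extent. The 11 rows whose ribosomal protein symbol is marked -ps took 0.0138% to 0.0224% of counts. By sequence, 1020 annotated pseudogenes met those limits for at least 1 member. Counts on pseudogenes with other symbols were not summed, so this share is not that of all pseudogene copies.

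Rps27l, a p53-inducible paralog of Rps27, was measured at 76.8, 73.6 and 73.8 CPM in H3K9M and at 39.2, 47.5 and 45.2 CPM in H3WT. The groups stood far apart, with a log2 fold change of 0.76 (SE 0.13). Its partner Rps27 was measured at 141, 111 and 132 CPM in H3K9M and at 78.7, 80.0 and 79.8 CPM in H3WT, giving a log2 fold change of 0.69 (SE 0.12). As a share of the pair's counts, Rps27l took 37.0% ± 2.51 in H3K9M and 35.6% ± 2.08 in H3WT (SD, n = 3 each), so the balance of the pair overlapped between groups. Rps27rt took 9.71% ± 0.0995 and 10.4% ± 0.707 of the counts of its pair with Rps27, and Rpl37rt 15.7% ± 1.59 and 15.3% ± 0.237 of its pair with Rpl37. The Rpl37rt shares overlapped between groups, while the Rps27rt share was lower in all 3 H3K9M libraries by a margin far below the spread within H3WT. With sequences this alike, the shares do not show how the copies themselves differed between groups.

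Rpl39l, a paralog of Rpl39 known from testis, had the largest log2 fold change of the family with all 6 libraries, 1.08, with the second largest error (SE 0.56). The value was 0.57 without H3K9M replicate 1, below that of Rps27l in the same fit (0.75), and 1.59 without H3WT replicate 2. It was measured at 10.4, 5.56 and 3.57 CPM in H3K9M and at 1.63, 4.88 and 2.71 CPM in H3WT, and H3WT replicate 2 lay above H3K9M replicate 5. Rpl39 itself was measured at 138, 96.0 and 107 CPM in H3K9M and at 74.6, 76.6 and 74.8 CPM in H3WT without overlap, a log2 fold change of 0.59 (SE 0.15). Rps4l, a processed copy of Rps4x, was measured at 80.2, 97.99 and 78.7 CPM in H3K9M and at 43.6, 55.0 and 57.4 CPM in H3WT, giving a log2 fold change of 0.72 (SE 0.15). Its parent Rps4x, the X-linked gene, had a log2 fold change of 0.29. The copy's share of the pair was 12.7% ± 2.63 in H3K9M and 9.69% ± 1.88 in H3WT, and the shares overlapped. Rpl36al had a log2 fold change of 0.29 with overlap (0.17 without H3WT replicate 4 and 0.45 without H3WT replicate 2), and its partner Rpl36a one of 0.55 without. Rpl32l, with 10 to 28 counts per library, had a log2 fold change of 0.80 (SE 0.78), an error about as large as the value, and 1.39 without H3WT replicate 1. It is annotated as a processed pseudogene, 96.0% identical to Rpl32 over 404 bases.

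Members have short transcripts, with a median of 679 bases against 2761 over all genes tested, and the fold change varied with that length over all genes. Other protein-coding genes had a median log2 fold change of 0.43 where the transcript was up to 500 bases (71 genes), of 0.37 up to 750 bases (269 genes) and of 0.25 up to 1000 bases (429 genes). It was 0.15 in the next class, up to 1500 bases, 0.06 up to 2000 bases and -0.13 over 5000 bases. Members of the same lengths had medians of 0.57 (22 genes), 0.49 (23 genes), 0.38 (21 genes), 0.37 (11 genes) and 0.35 (4 genes) in the 5 classes up to 2000 bases. In each of these 5 classes the members' median was above that of the other genes. Limiting the other genes to those of at least 50 CPM, nearer the members' abundance, gave 0.43, 0.33, 0.24, 0.15 and 0.04. These medians rest on 13, 68, 96, 264 and 410 genes, so that of the shortest class is the least certain. Of these genes, 61.5%, 45.6%, 29.2%, 18.6% and 9.27% were higher at an unadjusted p under 0.05 in edgeR's test. The share was 78.3% for all tested members and 6.42% for all genes tested. Much of the members' excess over all genes was thus shared by other short genes of at least 50 CPM. Rps20 (0.51), whose annotated transcript of 3706 bases is the longest among members, is one for which the chosen transcript may not be the one measured.

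**Figure D3:**
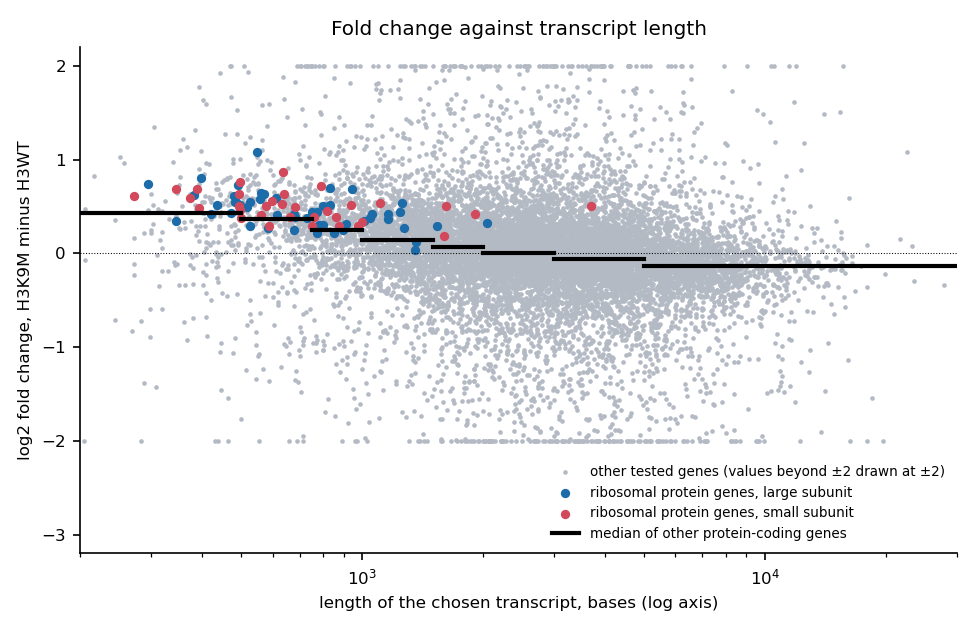
Log2 fold change of H3K9M minus H3WT (y axis) against the length of the chosen GENCODE transcript (x axis, log scale) for other tested genes (grey) and ribosomal protein genes (coloured by subunit); black bars are medians of other protein-coding genes per length class. The black bars step down from 0.43 up to 500 bases to -0.13 over 5000 bases, and most coloured points lie above them.

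The fold change also varied with length within the family. For the 76 members other than paralogs and copies, the median log2 fold change was 0.59 for coding sequences of up to 300 bases (9 genes), 0.52 up to 450 bases (27 genes), 0.44 up to 600 bases (19 genes) and 0.31 for longer ones (21 genes). Across these 76 genes, which are not independent replicates and share the 6 libraries, the fold change had a Pearson's r of -0.63 with log2 coding length, of -0.43 with log2 transcript length and of -0.55 with log2 mean CPM. Across 12129 other protein-coding genes r with log2 transcript length was -0.18.

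By library, other protein-coding genes with transcripts of up to 1000 bases (769 genes) had median centred levels of 0.21, 0.18 and 0.13 (log2) in the H3K9M libraries, in the same order, against -0.15, -0.11 and -0.16 in the H3WT libraries. Those with transcripts over 5000 bases (2173 genes) had -0.09, -0.07 and -0.004 and 0.11, 0.02 and 0.10. Short genes were thus higher in all 3 H3K9M libraries and long genes higher in all 3 H3WT libraries. The members followed the short genes in sign, though not in order, since H3K9M replicate 3 was lowest of its group for the members and replicate 5 for the other short genes. Fragment size and RNA quality were not analysed here, and their part in the result was not tested.

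**Figure D4:**
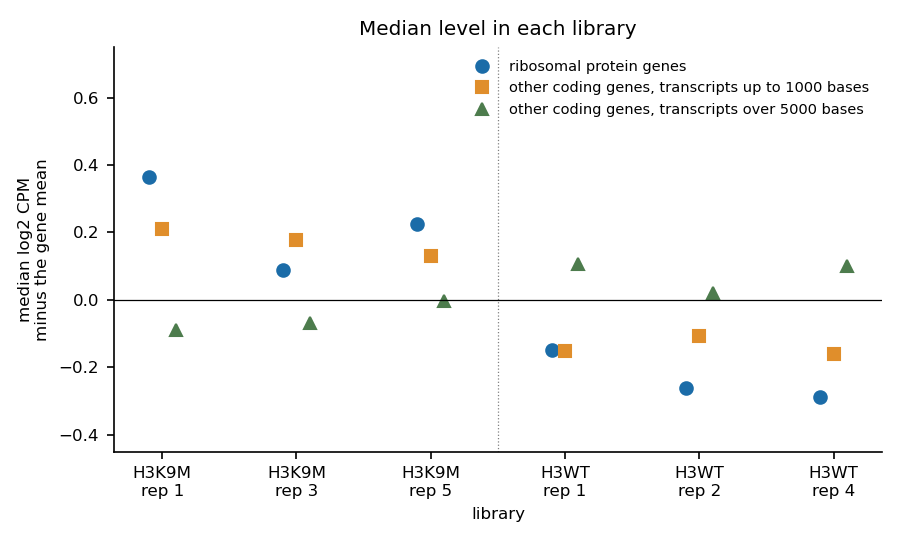
Median over genes of log2 CPM minus each gene's mean (y axis) in each library (x axis), for the tested ribosomal protein genes (circles), 769 other coding genes with transcripts up to 1000 bases (squares) and 2173 with transcripts over 5000 bases (triangles). Circles and squares are above 0 in the 3 H3K9M libraries and below 0 in the 3 H3WT libraries, and triangles have the opposite sign.

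With an offset for transcript length fitted in each library over all genes, members included, the median log2 fold change of members was 0.18 and 74 of 83 were above 0. The unadjusted p was under 0.05 and the value higher for 18 of 83, beside 4.54% of all genes in that fit. A joint offset for length and GC content gave a median of 0.18 and 19 of 83, beside 4.28% of all genes. An offset for coding length, added after the first results were seen, gave a median of 0.22 and 17 of 80, beside 4.26% of all genes. None of these fits called a member at an adjusted p of 0.05. Rpl37 had a log2 fold change of 0.44 with the transcript length offset, Rps27l 0.42 and Rps15a 0.31. The 9 members below 0 with that offset were Rpl3 (-0.11), Rpl29 (-0.058), Rpl28 (-0.056), Rpl18 (-0.049), Rpl36al (-0.047), Rps13 (-0.033), Rpl8 (-0.031), Rpl38 (-0.028) and Rplp0 (-0.023). Rpl41 turned under the coding length offset, to -0.14, where it has the shortest coding sequence.

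Among ribosomal proteins and relatives whose symbols fall outside the rule, Fau, which encodes Rps30 fused to a ubiquitin-like protein, was at 269, 232.5 and 257 CPM in H3K9M and at 182, 156 and 181 CPM in H3WT. On the log2 scale it was higher by 0.54 (SE 0.12), a difference that did not pass edgeR's test (adjusted p 0.206), and that lay inside the range of the members. Rps3a1, which encodes the small subunit protein eS1, was at 545, 485 and 634 CPM in H3K9M and at 580.0, 544 and 549.5 CPM in H3WT. The groups overlapped, and its log2 fold change of -0.01 (SE 0.14, adjusted p 0.988) was below that of every tested member. The sign of this value turned in 4 alternatives, to at most 0.09. Rack1 had a log2 fold change of 0.24, Rpl7l1 0.13 and Rpl22l1 0.68. None of these passed the adjusted threshold.

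No gene of the lists of related genes passed an adjusted p of 0.05 in edgeR, so their counts are given at an unadjusted p under 0.05, where 6.42% of all genes tested were higher and 5.77% lower. Of 59 tested ribosome assembly genes, which process ribosomal RNA and assemble subunits, 8 had an unadjusted p under 0.05 and were higher in H3K9M, 0 were lower, and the median log2 fold change was 0.15 (median transcript 2491 bases). Nop10, of the pseudouridylation complex, had 0.65 and Npm1, the nucleolar chaperone nucleophosmin, 0.41, while Rrn3, a factor of RNA polymerase I initiation, had -0.19. Among 16 translation factors whose messages also carry a TOP tract, 6 were higher and 0 lower at that level, with a median of 0.13 (median transcript 1891 bases). Eif3h had 0.41, Eif3e 0.44 and Btf3 0.43, whereas the elongation factors Eef1a1 and Eef2 had 0.05 and -0.16 (Eef2 -0.011 without H3K9M replicate 3). The TOP factors thus held genes at the members' median and genes near 0.

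At that level, which 6.42% of all genes tested passed as higher, 4 of 26 other translation factors were higher and 0 lower, with a median of 0.04 and values from -0.28 (Eif4g1) to 0.52 (Eif3m). Host genes of small nucleolar RNAs, several of which are TOP transcripts that code for no protein, had a median of 0.52 over 12 genes, 6 higher and 0 lower (median transcript 527 bases). Snhg6 was at 17.1, 15.9 and 18.6 CPM in H3K9M and at 8.36, 2.65 and 5.24 CPM in H3WT, giving 1.67 on the log2 scale (SE 0.39, adjusted p 0.212), while Snhg5 had -0.15 with overlap. Genes of the mTOR, S6 kinase and Myc pathways, which control ribosomal protein messages, had a median of -0.08 over 21 genes (median transcript 3872 bases). Rheb, the activator of mTOR complex 1, had 0.38, the inhibitor Tsc2 -0.35, Rps6ka1 -0.83 and Myc 0.02. Mtor itself had -0.13, Larp1 -0.27, Rps6kb2 -0.46 and Eif4ebp1 0.69 with overlap. In this list 7 genes were above 0 and 14 below, and the activity of the pathway was not tested. Of these 21, 1 was higher and 2 lower at an unadjusted p under 0.05, near the shares of all genes tested (6.42% and 5.77%). Among 10 genes of p53 and nucleolar stress 0 passed that level, with a median of 0.21, and Ccng1 had 0.42 (0.19 without H3K9M replicate 3).

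**Figure D5:**
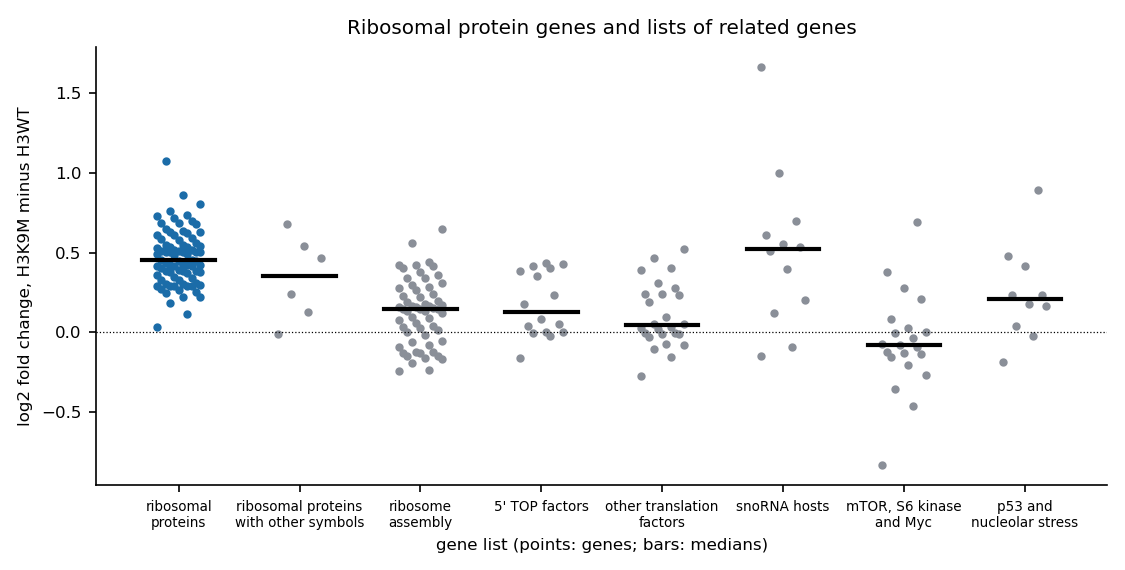
Log2 fold change of H3K9M minus H3WT (y axis) for each tested gene of the ribosomal protein family (blue) and of 7 lists of related genes (grey; x axis), with bars at the medians. Medians are 0.45 for the family, 0.52 for snoRNA hosts, 0.15 for ribosome assembly and -0.08 for mTOR, S6 kinase and Myc genes.

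The genes outside the family whose level most resembled the members' mean profile over the 6 libraries were Sf3b6 (Pearson's r 0.999), Rpl14-ps1 (0.999), Rbm7 (0.996), Syngr2 (0.994) and Zpr1 (0.992). They were chosen as the 5 highest among all tested genes, so these values are a description. Sf3b6, a splicing factor subunit, was at 35.8, 29.7 and 31.7 CPM in H3K9M and at 24.6, 23.6 and 22.2 CPM in H3WT. Rpl14-ps1 is a pseudogene copy of a member, averaging 156 ± 13.0 CPM in H3K9M against 112 ± 5.35 CPM in H3WT (SD, n = 3 each).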

How the data were processed

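Reads were counted per gene symbol by the authors, and the deposited table holds these raw counts, 1 column per library; the submitters' processing notes name HISAT2, featureCounts, DESeq2 and the build mm10, with no versions, and the annotation and strand setting are not given in the sources used here. Libraries were made from polyadenylated RNA, per the labels' protocols. 0 columns belonged to other samples. The members and lists were chosen with earlier results of these data known.

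The whole table was fitted with edgeR 4.0.16 in R 4.3.3 after filterByExpr and TMM scaling, by glmQLFit (robust) and glmQLFTest, the quasi-likelihood test, with group as the sole factor and all 6 libraries. The Benjamini-Hochberg adjustment ran over the 13761 genes tested (threshold 0.05). An SE is the log2 fold change divided by the square root of its F statistic. CPM are TMM-scaled; centred levels use log2 CPM with a prior count of 2. With 3 libraries against 3 no exact test of a single value was run. Named members were the 5 highest and 5 lowest fold changes, the 3 smallest p-values, the 5 highest and 3 lowest levels per kilobase, 8 chosen for their roles, and each paralog with its partner; outside the family, the smallest p in each direction per list. Rpl23a, Rpl35, Rpl35a, Rpl22, Rpl18, Rps20, Rpl12, Rpl23 and several list genes were added after their values were seen.

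Lengths, GC content and exon numbers come from GENCODE M21 (GRCm38), taking for each gene the shortest basic transcript of the best APPRIS rank. Such a transcript was found for 94.3% of tested genes and 84 members. Length offsets were loess fits (span 0.5) per library. Gene coordinates and promoter windows are those of RefSeq on GRCm38.p6. Similar transcripts were found with blastn 2.17.0. The alternatives were DESeq2 1.42.0, limma-voom (limma 3.58.1), other scalings and filters, length offsets and leaving out each library. The computations were tested on simulated data. One gene of a related list is not reported here.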

Additional observations from a re-analysis of the deposited data

How the results depend on the processing

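The members' median log2 fold change kept its sign under every alternative run, at 0.39 (without H3K9M replicate 1) to 0.55 (without H3K9M replicate 3) when each library was left out. It was 0.18 with a transcript length offset, 0.18 with length and GC content, and 0.22 with coding length. The count at an unadjusted p under 0.05 was 44 to 74 with a library left out, and 18, 19 and 17 with those 3 offsets. The count past the adjusted threshold was 0 with each library left out, 34 with DESeq2 and 1 with every gene that had a count (Rps27l); the cause of the difference between tools was not tested. The difference in the share of counts was 0.897 to 1.12 percentage points with a library left out. Counts scaled by library size alone moved the median of all genes to 0.05 and that of members to 0.51.

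For single named genes, 691 values kept their direction and side of the threshold, 18 came past it (17 with DESeq2) and 17 reversed. Rpl3 was at -0.11 with the transcript length offset, -0.12 with length and GC content, and -0.078 (without H3K9M replicate 1) to 0.11 (without H3K9M replicate 3) with a library left out. Rplp0 was at -0.023 and -0.017 with the first and second offset, Rpl36al at -0.047, -0.052 and -0.025 with all 3, Rpl28 at -0.056 (transcript length) and -0.040 (coding length), Rpl8 at -0.031 (transcript length) and Rpl41 at -0.14 (coding length). Rps3a1 was at 0.045 with library size alone, 0.0063 without H3K9M replicate 1, 0.089 without H3K9M replicate 3 and 0.02 without H3WT replicate 1. Sesn2 had its lowest value, -0.44, without H3WT replicate 2 and its highest, 0.055, when H3WT replicate 1 was left out. No paired analysis was possible because the groups share only replicate number 1. Depth allows no value for Rpl3l, with 0 counts, and Rpl32l, with 10 to 28 counts per library, had the fewest counts of the tested members.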
